A study of Homo sapiens with 4 samples.

Results

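The integrin and matrix genes described here are 37 genes of cell adhesion to the extracellular matrix: integrin subunits, laminin chains, collagens, other matrix proteins, and the surface receptors SDC1, SDC4 and DAG1. They were taken by gene symbol, 1 probe set for each gene, the one with the highest mean over the arrays. Of the 37, 33 had a probe set that named that gene alone, among 19775 genes named in all. A reading was treated as measured only if a gene's highest value reached 5.73 on the log2 scale, which is the median over every probe set and array, and 29 of the 33 passed, among 13651 genes. COL4A1, COL12A1, SPARC and LOX read below that value on all 4 arrays. The probe sets of ITGB6 also named a second gene, and LAMA3, COL17A1 and DAG1 were not named in the probe annotation used here, so these 4 were not analysed.

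The samples were 2 lines of colon cancer cells, HT29 and Colo205, each as the parental line and as a resistant derivative, HT29RC and Colo205RC. The derivatives had been selected by growth in rising concentrations of PLX4720, an inhibitor of the kinase BRAF, and had been without the drug for 24 h when they were harvested. All cells were grown in medium with serum. Each line and status had 1 Affymetrix array, so the 2 lines are the 2 replicates of each group. The series text speaks of resistant clones without giving their number, and no label tells whether cultures were independent. Differences within a line therefore have no replicate check.

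Integrins are receptors made of an alpha and a beta chain that bind matrix proteins outside the cell and couple them to the actin or keratin cytoskeleton inside. Laminins, each a trimer of an alpha, a beta and a gamma chain, form the basement membrane under epithelia together with network-forming collagens, nidogen and the heparan sulfate proteoglycans perlecan and agrin. Fibronectin, tenascin-C and thrombospondin belong to the matrix that tissues lay down during repair and in tumour stroma. In the colon, epithelial cells rest on laminin, and matrix proteins of the stroma come largely from other cell types.

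The arrays read as epithelial cells. All 10 colon epithelial markers were named, and 8 to 10 of them read at or above the filter value on each array, with EPCAM between 13.75 and 13.97 and KRT18 between 14.32 and 14.82. In the HT29 pair 4 of the 10 read 2-fold or more higher on the resistant array, KRT20 by 1.58, KRT19 by 1.11, and CDH17 and CDX2 from parental readings below the filter value (5.30 to 11.24 and 5.17 to 6.52). In the Colo205 pair 1 did, CDH17 by 1.37, and 7 of the 10 read higher by any size. KRT20 read below the filter value on both Colo205 arrays (4.79 and 3.95), as did CDX2 on the parental one (5.66). VIL1 and CDH1 differed by -0.45 and -0.22 in that pair. Of 11 fibroblast markers, 5 or 6 reached the filter value on each array, none above 7.45, and PDGFRA, COL3A1 and POSTN stayed below it on all 4. In such bulk RNA, fewer cells of a type and less RNA per cell cannot be told apart. The log2 of the summed linear signal of the fibroblast list lay between 9.15 and 9.44. Endothelial markers reached 7.18 at most, and of the leukocyte markers PTPRC and CD3E stayed below the filter value everywhere while LYZ, which secretory epithelium also makes, read 13.46 to 14.03. Array medians lay within 0.05 of each other. The 24 poly-A spike probe sets were lower on the resistant arrays, by a median of -0.43 for HT29 and -0.72 for Colo205, whereas the 18 hybridisation control probe sets had medians of -0.08 and -0.05. The part of the spike shift in the differences below was not tested.

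Upstream sequences are shown for the member that was 2-fold or more higher in both resistant lines, TNC, for ITGA2, and for the start of LAMB3 that held an AP-1 match. The last 2 were added after their values were seen. The sequences are from RefSeq, build GRCh38.p14, read 5′ to 3′ along the gene. Those of TNC and ITGA2 end just before the transcription start, and that of LAMB3 lies further upstream. TNC covers 250 bases at chr9:115118158-115118407 on the minus strand, and its capitals mark the SP1 motif GGGCGG on either strand. ITGA2 covers 250 bases at chr5:52989102-52989351 on the plus strand, and its capitals mark the same motif. LAMB3 is a 30-base window at chr1:209651423-209651452 on the minus strand, and its capitals mark an AP-1 motif at positions -67 to -61 from that start.
TNC: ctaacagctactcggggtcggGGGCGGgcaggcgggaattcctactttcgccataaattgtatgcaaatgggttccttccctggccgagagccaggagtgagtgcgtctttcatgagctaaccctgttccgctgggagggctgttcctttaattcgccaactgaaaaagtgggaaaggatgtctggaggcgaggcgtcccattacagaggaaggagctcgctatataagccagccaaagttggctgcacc
ITGA2: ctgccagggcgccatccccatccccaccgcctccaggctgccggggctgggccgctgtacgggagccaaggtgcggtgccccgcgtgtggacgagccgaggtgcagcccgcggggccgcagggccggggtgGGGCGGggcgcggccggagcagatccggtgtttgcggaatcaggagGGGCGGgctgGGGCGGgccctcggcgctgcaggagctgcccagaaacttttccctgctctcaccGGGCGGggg
LAMB3: gtcagccactcTGACTCAttcactttgggc

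The motifs searched on both strands in the 250 bases before each start were TGANTCA for AP-1, GGAATG for TEAD and GGGCGG for SP1. In all, 30 members had a promoter in the table, some with several starts. SP1 matched 30 of their 41 promoters, or 73.2%, against 42.6% of all 35116 promoters in the table and 53.7% of those of protein-coding genes. AP-1 matched 2 of the 41, those of LAMA3 and LAMB3, or 4.88%, against 6.57% of all. TEAD matched 5 of the 41, or 12.2%, against 11.9%. The TNC window held 1 SP1 match and none for the other letters, and the ITGA2 window held 4 SP1 matches. A match is a stretch of letters and was not tested as a binding site.

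Resistant HT29 had more of these genes at 2-fold or more than resistant Colo205. In HT29, 8 of the 29 measured members were 2-fold or more higher than in the parent, where 3.42% of all genes were: ITGA2, ITGA3, ITGB4, ITGB8, LAMB3, LAMC1, TNC and MATN2. Another 2, ITGA1 and COL9A3, were 2-fold or more lower, where 1.72% of all genes were. In Colo205, TNC alone was 2-fold or more higher, where 0.908% of all genes were, and LAMB1 and MATN2 were 2-fold or more lower, where 2.51% were. The median difference over the 29 was 0.24 in HT29 and 0.06 in Colo205, beside -0.01 and -0.02 over all 13651 genes. The epithelial markers had medians of 0.48 and 0.14, with 4 of 10 past 2-fold upward in HT29 and 1 in Colo205, and their part in the member counts was not tested. The members were listed with earlier results of these data known, so these counts describe them and carry no test.

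**Figure D1:**
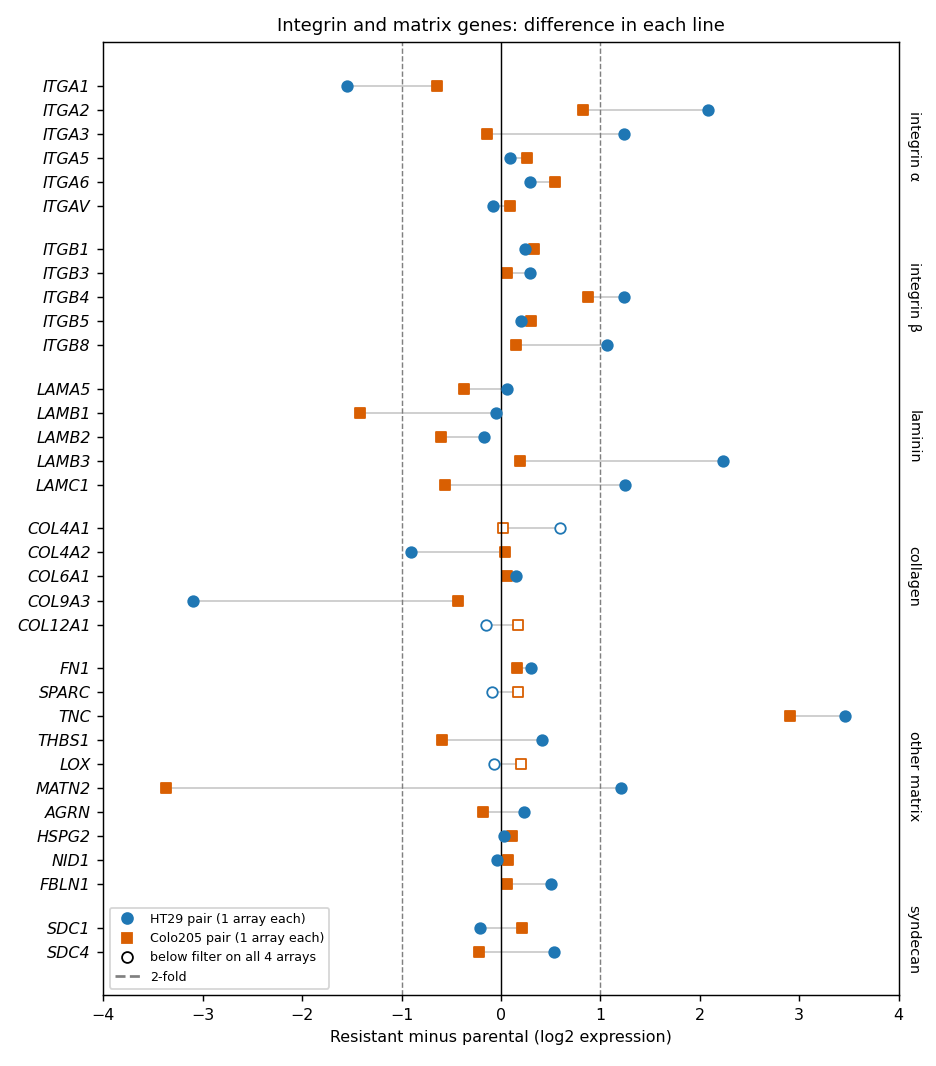
Resistant minus parental log2 expression of the 33 integrin and matrix genes with a probe set, for the HT29 pair (circles) and the Colo205 pair (squares), 1 array on each side. Open symbols are the 4 genes below the filter value on all arrays, dashed lines mark 2-fold, and TNC lies beyond 2-fold on the right in both lines, at 3.46 and 2.91.

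TNC, which encodes tenascin-C, a large glycoprotein of the matrix of wounds and tumours, was the 1 member 2-fold or more higher in both resistant lines, where 0.293% of all genes were. In HT29 it read 6.06 before and 9.52 after resistance, 3.46 apart on the log2 scale. In Colo205 it read 7.96 and 10.87, which is 2.91 apart or 7.51-fold. Both resistant arrays lay above both parental arrays, so the groups did not overlap. The share of all genes separated in this way was not computed. Averaged over both pairs, limma put it 3.18 higher, with a 95% interval of 2.57 to 3.79. Its unadjusted p was 2.3e-04, and it was higher in 2 of 2 lines, but it did not pass over all genes (limma, Benjamini-Hochberg adjusted p = 0.706). The value rests on 1 probe set, since the other 2 for TNC read below the filter value on every array, with differences of 0.31 and 0.50 in HT29 and 0.38 and 0.73 in Colo205.

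No member passed the adjusted threshold of 0.05 for resistant against parental arrays in limma with the cell line as a block, nor did any of the 13651 genes, so the background was 0%. At an unadjusted p under 0.05 there were 4 members, TNC, ITGB4, ITGA2 and ITGA1, and 928 genes in all. The smallest adjusted p over all genes was 0.706. With 1 residual degree of freedom, a missed threshold does not show that a gene was alike in both groups.

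Among the integrin alpha chains, ITGA2 and ITGA1 stood farthest from their parents and on opposite sides. Both pair with ITGB1 to form collagen receptors, and the ITGA1 and ITGA2 starts lie 201436 bases apart on chromosome 5 in GRCh38.p14. ITGA2 read 10.03 in HT29 and 12.12 in HT29RC, and 10.14 in Colo205 and 10.96 in Colo205RC. Both resistant readings were above both parental ones, without a share of all genes to set beside this. Its differences were 2.09 and 0.82, or 4.25-fold and 1.77-fold, and its second measured probe set gave 1.91 and 0.76. The limma mean was 1.45, interval 0.38 to 2.53 (adjusted p = 0.706).

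ITGA1 had differences of the opposite sign. It read 8.37 in HT29 and 6.82 in HT29RC, and 9.10 in Colo205 and 8.46 in Colo205RC, so that the resistant Colo205 reading still lay above that of parental HT29. Its differences were -1.55 and -0.65, and its second measured probe set gave -1.63 and -0.99. That second probe set fell to 4.20 in HT29RC, below the filter value, and to 5.75 in Colo205RC, near it. Its HT29 difference therefore has no exact size. For the probe set used, the limma mean was -1.10 with an interval from -1.93 to -0.27 (adjusted p = 0.706). Of up to 10 measured genes on either side of each in RefSeq order, the median difference was -0.12 in HT29 and -0.14 in Colo205 around ITGA1, and -0.11 and -0.14 around ITGA2.

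ITGA3, the alpha chain of a laminin receptor of epithelia, read higher in HT29RC than in its parent, with no such difference in the Colo205 pair. It read 7.45 and 8.68 in HT29, a difference of 1.24, and 6.83 and 6.69 in Colo205, a difference of -0.14, on 1 probe set. ITGA6, which pairs with ITGB4 in the hemidesmosome and with ITGB1 elsewhere, read 12.44 and 12.73 in HT29 and 12.80 and 13.34 in Colo205. Its second probe set gave differences of 0.43 and 0.80, against 0.29 and 0.54 for the first. ITGA5, the alpha chain of the main fibronectin receptor, differed by 0.09 and 0.26. ITGAV, which pairs with several beta chains to bind vitronectin and latent TGF-beta, differed by -0.08 and 0.09.

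All 5 measured beta chains read higher on the resistant array of each line by the probe set used, and for ITGB4 and ITGB5 the sign turned with other probe sets. Of all genes, 26.3% were higher in both lines. The median over the 5 was 0.29 for HT29 and 0.30 for Colo205. ITGB4, the beta chain of the hemidesmosome, read 8.76 in HT29 and 10.00 in HT29RC, and 10.15 in Colo205 and 11.03 in Colo205RC. The HT29RC reading of ITGB4 lay below that of parental Colo205. The differences were 1.24 and 0.88, with a limma mean of 1.06, an interval from 0.54 to 1.58 and adjusted p = 0.706. The direction depends on the probe set. The 4 measured probe sets of ITGB4 lay between -0.25 and 1.24 for HT29 and between -0.51 and 0.88 for Colo205. With probe sets of shared or cross-matching design (names ending _s_at or _x_at) left out, the mean was -0.38. The remaining probe set, at -0.25 and -0.51, read 5.25 to 5.99, near the filter value, whereas the one used read 8.76 to 11.03.

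ITGB8, whose pair with ITGAV activates latent TGF-beta, read 10.33 in HT29 and 11.40 in HT29RC, a difference of 1.07, and 8.39 and 8.54 in Colo205, a difference of 0.15. The measured neighbours of ITGB8 along chromosome 7 had a median difference of 0.45 in HT29 and -0.06 in Colo205, and their part in the ITGB8 value was not tested. ITGB1, the most widely shared beta chain, differed by 0.24 and 0.33, with its 4 measured probe sets between 0.23 and 0.76 in HT29 and between 0.10 and 0.37 in Colo205. ITGB5 and ITGB3, both partners of ITGAV, differed by 0.20 and 0.30 and by 0.29 and 0.06. The ITGB3 readings, 5.99 to 6.34, lay near the filter value. The 4 measured probe sets of ITGB5 lay between -0.16 and 0.23 for HT29 and between -0.43 and 0.30 for Colo205.

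**Figure D2:**
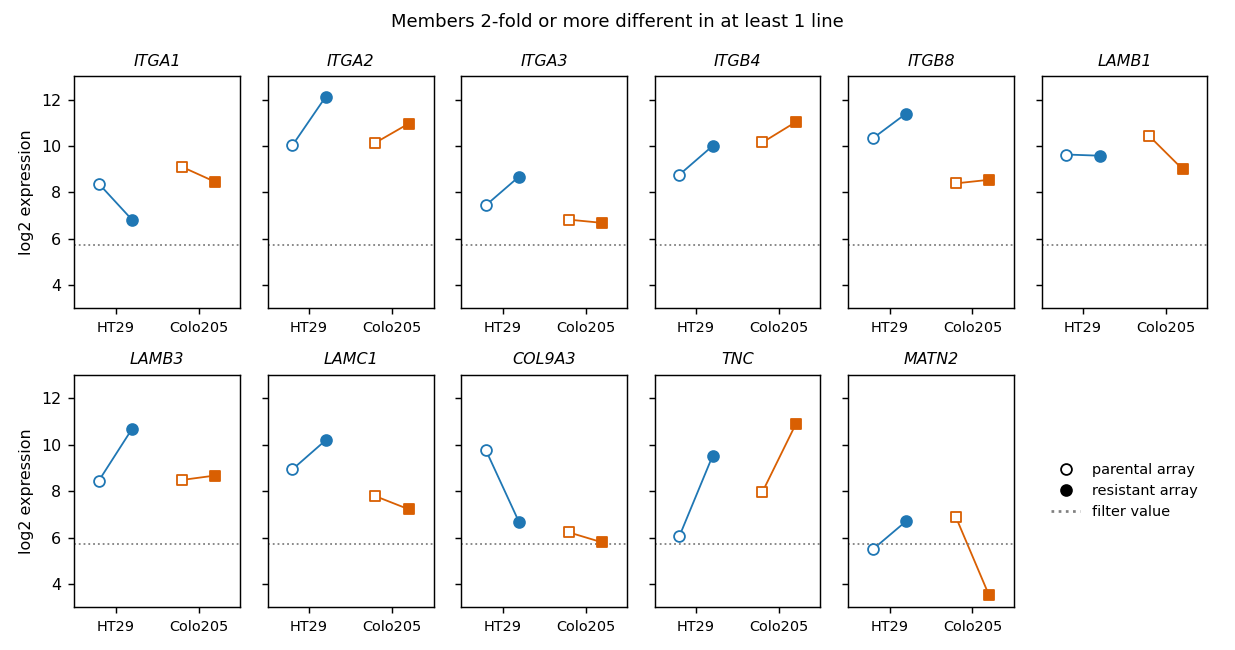
log2 expression on each of the 4 arrays for the 11 members that were 2-fold or more different in at least 1 line, with parental arrays as open and resistant arrays as filled symbols and the filter value of 5.73 dotted. TNC, ITGA2, ITGB4, ITGB8 and LAMB3 run upward in both cell lines, and ITGA1, COL9A3 and LAMB1 run downward in both. MATN2, LAMC1 and ITGA3 run upward in HT29 and downward in Colo205. The slopes of ITGA3, ITGB8 and LAMB3 in Colo205 and of LAMB1 in HT29 are slight.

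The laminin chains past 2-fold were LAMB3 and LAMC1 in HT29 and LAMB1 in Colo205. LAMB3, the beta chain of the laminin that anchors hemidesmosomes, read 8.46 in HT29 and 10.69 in HT29RC, a difference of 2.23 or 4.69-fold. In Colo205 it read 8.48 and 8.67, a difference of 0.19. The resistant HT29 reading stood above the other 3, which lay between 8.46 and 8.67. Over both lines the limma mean was 1.21 with an interval from -0.43 to 2.86 (adjusted p = 0.706). LAMB3 rests on 1 probe set.

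LAMC1, the gamma chain of most laminins, read 8.94 and 10.19 in HT29, a difference of 1.25, and 7.78 and 7.22 in Colo205, a difference of -0.56. Its second measured probe set gave 0.94 in HT29 but 0.53 in Colo205, so the sign in Colo205 differed between its probe sets. LAMB1, the beta chain that joins LAMC1 in laminins of many tissues, read 9.63 and 9.58 in HT29 and 10.42 and 9.00 in Colo205. The Colo205 difference was -1.42, with -1.33 from the second probe set, and the HT29 differences were -0.05 and 0.22. The measured neighbours of LAMB1 had medians of -0.52 in HT29 and -0.34 in Colo205, and their part was not tested. LAMB2, a beta chain prominent at neuromuscular and kidney basement membranes, was at -0.17 and -0.61 with 1 reading below the filter value. LAMA5, the alpha chain of the laminin of mature epithelial basement membrane, was at 0.07 and -0.37.

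Of the collagens, COL9A3 had the farthest reading from its parent. This chain of collagen IX, a fibril-associated collagen of cartilage, read 9.76 in HT29 and 6.66 in HT29RC, a difference of -3.10 or 8.58-fold, and 6.22 in Colo205 and 5.79 in Colo205RC, a difference of -0.43. Parental HT29 stood above the other 3 arrays, and both Colo205 readings lay near the filter value, where a fall has little room to show. The limma mean was -1.77 with an interval from -3.89 to 0.36 (adjusted p = 0.706), on 1 probe set. COL4A2, a chain of the basement membrane collagen network, read 8.52 and 7.62 in HT29 and 7.53 and 7.58 in Colo205, and its probe sets lay between -0.91 and -0.53 for HT29 and between 0.04 and 0.12 for Colo205. COL6A1, a chain of beaded-filament collagen, differed by 0.15 and 0.06. COL4A1, the usual partner of COL4A2, read 4.50 to 5.14 and COL12A1, a fibril-associated collagen, 4.56 to 4.78, so differences in either have no measured size.

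Among the other matrix genes, MATN2 went in opposite directions. It encodes matrilin-2, a filament-forming adaptor of the matrix, and read 5.49 in HT29 and 6.71 in HT29RC but 6.88 in Colo205 and 3.51 in Colo205RC. The differences were 1.21 and -3.37, each resting on 1 reading below the filter value and so without an exact size. Of all genes, 0.198% were 2-fold or more higher in resistant HT29 and lower in resistant Colo205. The limma mean was -1.08 with an interval from -4.67 to 2.51. The second MATN2 probe set read below the filter value on every array. No member was 2-fold or more lower in both lines, where 0.234% of all genes were.

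THBS1, the matricellular protein thrombospondin-1, read 8.63 and 9.04 in HT29 and 5.44 and 4.85 in Colo205, below the filter value in the latter. Its 3 measured probe sets gave 0.41 to 0.96 in HT29 and -0.59 to 0.41 in Colo205. FBLN1, fibulin-1 of elastic fibres and basement membranes, was at 0.50 and 0.06. The fibronectin gene FN1 read 5.57 to 6.04, near the filter value, with differences of 0.30 and 0.16, and its second measured probe set gave 0.11 and -1.10. That second probe set reached the filter value on the parental Colo205 array alone, so its differences have no exact size. The other FN1 probe sets read below the filter value on every array, with Colo205 differences from -0.97 to 0.10. AGRN (agrin) differed by 0.23 and -0.18, HSPG2 (perlecan) by 0.04 and 0.11, and NID1, the nidogen that links laminin to collagen, by -0.04 and 0.07. The other NID1 probe sets read below the filter value on every array. SPARC, a collagen-binding matricellular protein, read 4.11 to 4.36 and LOX, the enzyme that crosslinks collagen, 3.90 to 4.33.

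The syndecans are membrane proteoglycans that act beside integrins as matrix receptors. SDC1, the main syndecan of epithelia, differed by -0.21 and 0.22, and SDC4, which gathers in focal adhesions, by 0.54 and -0.22. In all, 18 of the 29 measured members were under 2-fold in both lines, between -0.91 and 0.54 in HT29 and between -0.61 and 0.54 in Colo205. For 8 of the 18, ITGA5, ITGAV, ITGB3, COL6A1, AGRN, HSPG2, NID1 and SDC1, both differences were smaller than 0.30, the SD of the differences between probe sets of 1 gene. Of these, ITGB3, COL6A1 and NID1 read near the filter value, where a small difference does not show a stable level. The share of all genes that stayed under 2-fold, or under 0.30, in both lines was not computed. Past 2-fold upward in HT29 lay 27.6% of the members beside 3.42% of the 13651 genes, and downward 6.9% beside 1.72%. For Colo205 the upward shares were 3.45%, which is TNC alone, and 0.908%, and the downward shares 6.9% and 2.51%. The count of 18 therefore does not mark the members as more stable than other genes.

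**Figure D3:**
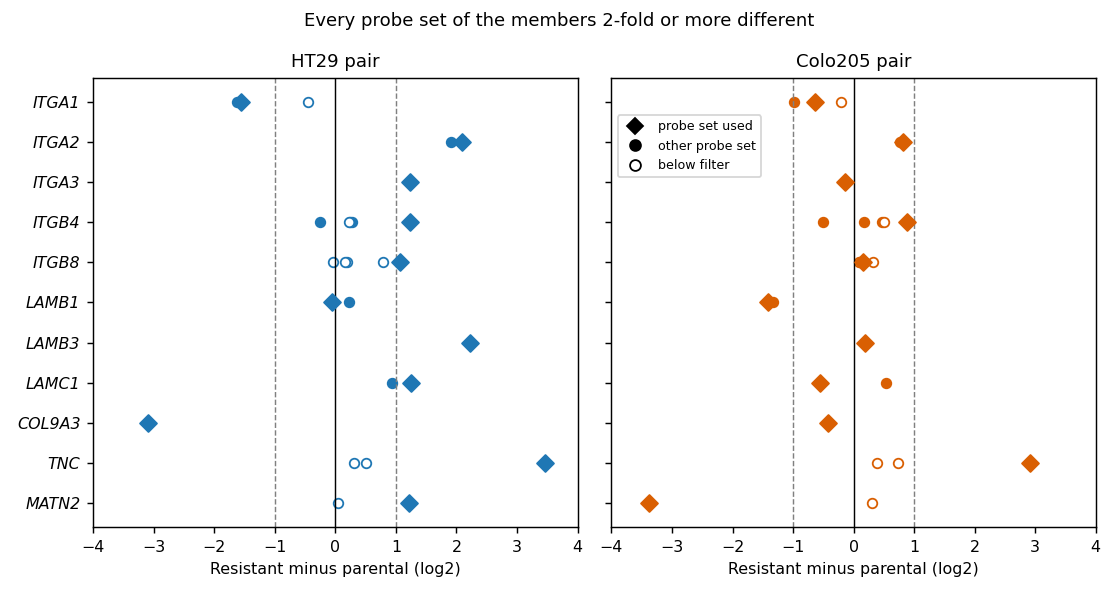
Resistant minus parental log2 difference of every probe set of the 11 members 2-fold or more different in at least 1 line, for HT29 (left) and Colo205 (right). Diamonds are the probe sets used, circles the others, and open symbols read below the filter value on all arrays. The pairs of filled symbols for ITGA1, ITGA2 and LAMB1 lie close together, and those of ITGB4 spread from -0.25 to 1.24 in HT29. The second ITGA1 probe set read below the filter value in HT29RC.

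The lines themselves also differed, in both the parental and the resistant state. Of the 29 measured members, 8 read 2-fold or more higher in HT29 than in Colo205 on both the parental and the resistant arrays, where 5.16% of all genes did: ITGAV, ITGB5, ITGB8, LAMA5, LAMC1, THBS1, AGRN and HSPG2. Another 3, ITGB4, TNC and SDC1, read 2-fold or more lower in HT29 on both, where 7.52% of all genes did. In limma, with status as a covariate, 7 members were higher in HT29 (all of the 8 but LAMC1) and the same 3 were higher in Colo205 at adjusted p under 0.05, beside 6.22% and 8.94% of all genes. Parent and derivative come from the same line, so these p-values are about these 2 lines, and are too small as statements on independent cultures.

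THBS1 had the widest gap of the called members, with HT29 higher by 3.19 on parental and 4.19 on resistant arrays (limma mean 3.69, interval 2.80 to 4.58, adjusted p = 0.0160). Its Colo205 readings lay below the filter value, and its probe sets ranged from 1.44 to 3.19 and from 1.77 to 4.19. ITGAV and ITGB5, which together form a vitronectin receptor, were both higher in HT29. ITGAV read 11.61 and 11.52 there against 9.85 and 9.94 in Colo205 (mean 1.68, interval 1.22 to 2.13, adjusted p = 0.0182), and ITGB5 read 11.98 and 12.18 against 10.16 and 10.46 (mean 1.77, interval 1.33 to 2.21, adjusted p = 0.0164). ITGB8, another partner of ITGAV, had a mean of 2.40 with an interval from 1.57 to 3.23 (adjusted p = 0.0256). ITGAV and ITGB8 each rest on 1 measured probe set. The 4 of ITGB5 ranged from 0.81 to 1.82 on parental and from 0.78 to 2.24 on resistant arrays.

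Of the laminin chains, LAMA5 alone was called, on 1 probe set. LAMA5 was higher in HT29 by 1.92 on parental and 2.36 on resistant arrays (limma mean 2.14, adjusted p = 0.0172). The proteoglycan genes AGRN and HSPG2 had limma means of 1.91 (adjusted p = 0.0193) and 1.81 (adjusted p = 0.0160). Other probe sets gave smaller gaps. The 4 measured for AGRN ranged from 0.09 to 1.70 on parental and from -0.05 to 2.11 on resistant arrays, and the 2 for HSPG2 from 0.48 to 1.85 and from 0.23 to 1.78. LAMC1 had a limma mean of 2.06 but adjusted p = 0.0816.

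SDC1 read 10.22 and 10.01 in HT29 against 12.10 and 12.32 in Colo205 (limma mean -2.10, interval -2.64 to -1.55, adjusted p = 0.0174). TNC was lower in HT29 than in Colo205 within each status, by -1.90 on parental and -1.35 on resistant arrays (limma mean -1.63, adjusted p = 0.0288), while resistant HT29 at 9.52 lay above parental Colo205 at 7.96. ITGB4 had a mean of -1.21 (adjusted p = 0.0355), but its probe sets ranged from -1.39 to 0.22 on parental and from -1.02 to 0.48 on resistant arrays. COL9A3 differed by 3.54 between the parents and by 0.87 between the derivatives, with its Colo205 readings near the filter value. LAMB3 differed by -0.02 and 2.02. Neither passed, with adjusted p of 0.132 and 0.304 in limma.

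**Figure D4:**
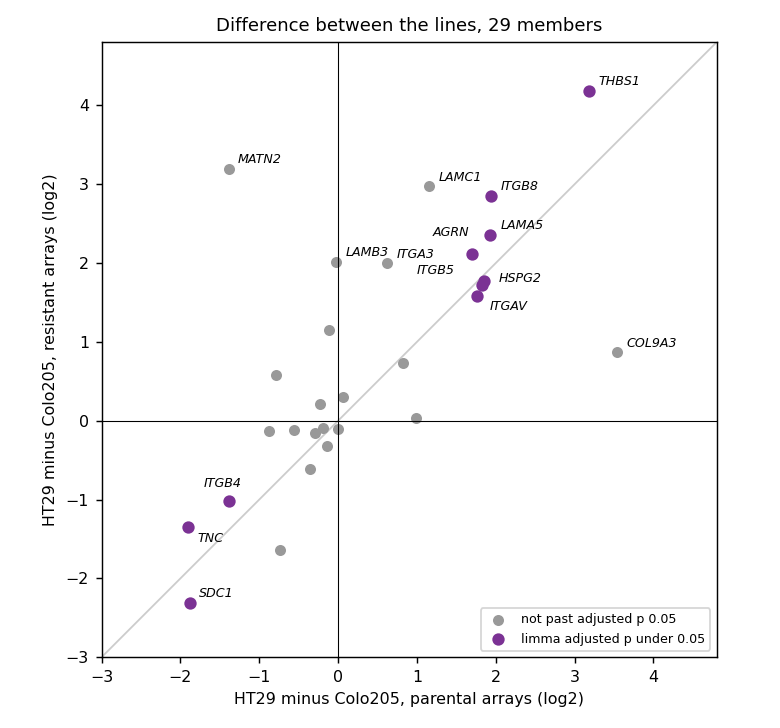
HT29 minus Colo205 log2 expression on the parental arrays (horizontal) and on the resistant arrays (vertical) for the 29 measured members, with the 10 past adjusted p 0.05 in limma in purple and equal gaps along the diagonal. THBS1 lies farthest along the diagonal at 3.19 and 4.19, and MATN2 and COL9A3 lie far from it.

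Other genes of the same pathways were read from lists that do not hold the members, with no gene past the adjusted threshold for resistance in any list (limma, 0 of 13651 genes). Of 29 measured focal adhesion genes, 0 were 2-fold or more higher in either line, 1 was lower in HT29 and 3 were lower in Colo205, with medians of 0.15 and -0.02. The shares of all genes past 2-fold were 3.42% higher and 1.72% lower in HT29, and 0.908% and 2.51% in Colo205, and they stand beside each list that follows. PXN, the adaptor paxillin, had the highest mean at 0.91 and 0.20, but its other probe set gave -0.10 and -0.22. ENAH, an actin regulator, had the lowest mean at -0.15 and -1.71, with its 5 probe sets from -1.71 to -0.04 in Colo205. Its reading of 5.51 in Colo205RC lay below the filter value, so the -1.71 has no exact size. TRIP6 was the 1 lower in HT29, at -1.03, and PARVA and NEDD9 were at -1.09 and -1.05 in Colo205, where the probe sets of PARVA lay between -1.26 and -0.14 and those of NEDD9 between -1.05 and 0.07. These 3 were named after their values were seen.

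The hemidesmosome list, plaque proteins, keratins and a tetraspanin that accompany the ITGA6 and ITGB4 pair, had medians of 0.53 and 0.26 over 4 measured genes, 3 of them higher in both lines, where 26.3% of all genes were. DST, which encodes the plaque protein dystonin, was at 1.37 and 0.65, though its 6 probe sets began at 0.06 and 0.04, and the tetraspanin gene CD151 was at 0.29 and -0.43. Of 12 measured genes that glycosylate dystroglycan, 0 were higher in both lines and 7 were lower in both, with medians of -0.21 and -0.22, where 26.3% and 30.1% of all genes were. DPM3, a subunit of the enzyme that makes dolichol phosphate mannose, was at -0.86 and -0.77, and POMK, a kinase of the sugar chain, had the highest mean with 0.32 in Colo205, and no gene of this list reached 2-fold.

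Collagen-modifying enzymes included 3 of 23 measured genes 2-fold or more higher in HT29 (3.42% of all genes) and 1 lower in Colo205 (2.51%). P3H2, a prolyl hydroxylase active on basement membrane collagen, was at 1.77 and 0.89, with a second probe set at 0.37 and 0.35, and both Colo205 readings of the first lay below the filter value. P4HA2, a subunit of the prolyl hydroxylase that stabilises the collagen helix, was at 1.44 and -0.32, and PCOLCE2, an enhancer of procollagen processing, at 1.36 and -0.62, the latter between readings below the filter value. Both were named after their values were seen. LOXL1, a crosslinking oxidase of the LOX family, read 7.56 in Colo205 and 4.71 in Colo205RC, a difference of -2.85 that ends below the filter value, and differed by -0.10 in HT29.

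Matrix glycoproteins and proteoglycans outside the members had 4 of 26 measured genes 2-fold or more higher in HT29 (3.42% of all genes) and 1 lower (1.72%), with 0 in either direction in Colo205. FBN2, the microfibril protein fibrillin-2, read 3.49 in HT29 and 6.89 in HT29RC, and 3.48 and 3.71 in the Colo205 pair, so that HT29RC alone reached the filter value. LUM (lumican), ECM1 and GPC1 (glypican-1) were the others past 2-fold, LUM at 1.65 from a parental reading below the filter value and GPC1 at 1.08 with a second probe set at 0.22, and were named after their values were seen, and LUM also stands on the fibroblast marker list, whose other 10 genes did not reach 2-fold. BGN, the proteoglycan biglycan, was lowest at -1.23 and 0.22, the latter between readings below the filter value. Of 15 measured other collagens, COL27A1 was the 1 past 2-fold, at -1.39 in HT29 with its 4 probe sets from -1.39 to 0.09, and COL20A1 had the highest mean at 0.45 and 0.03.

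Other integrins and laminins held none past 2-fold. The medians over 9 measured other integrins were 0.07 in HT29 and 0.13 in Colo205, with ITGB7, a beta chain of lymphocyte homing receptors, at 0.13 and 0.64 and ITGB2 at -0.06 and -0.10. The 3 measured other laminins ran from LAMA2 at -0.13 and -0.09 to LAMC3 at 0.14 and 0.32.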

How the data were processed

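Total RNA of 4 cell cultures was labelled with biotin and hybridised to Affymetrix arrays, per the labels' protocols. The authors deposited log2 expression values for 54675 probe sets. That these are log2 values was taken from their range, 2.51 to 14.88. MAS5 and RMA appear in the submitters' processing notes, without a role or version. A genome build was not stated.

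Probe sets naming 1 gene (41091) were kept, and those naming several (1801) or none were left out. Of the 41091, 41037 had a gene identifier in the RefSeq table of GRCh38.p14, and 0 symbols changed. The test of resistance was limma 3.58.1 (R 4.3.3) over all 13651 genes, with the cell line as a block, because each derivative comes from its own parent, and Benjamini-Hochberg adjustment. The line term of the same fit compared HT29 with Colo205. There was 1 residual degree of freedom, and the moderated variance added 2.54. The number of arrays limits the precision. Counts within a line are at 2-fold.

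Every member is given. In other lists, genes past 2-fold in both lines, and otherwise the highest and lowest by mean, were named. The members and lists were chosen with earlier results of these data known. Promoter sequences are from RefSeq. Protein sequences were not used here.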

Additional observations from a re-analysis of the deposited data

Results flagged for a closer look

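In 3 of the 29 measured members the lines differed in opposite directions by more than 0.30, the SD between probe sets of 1 gene. The share of all genes that meet this rule was not computed, so the count says nothing particular of the members. Of all genes, 26.3% were higher and 30.1% lower in both lines, by any size. With 1 array for each line and status, this contrast between lines was not tested. MATN2 was at 1.21 in HT29 and -3.37 in Colo205, a gap of 4.58 as read. Parental HT29 and resistant Colo205 lay below the filter value, so this gap has no exact size. LAMC1 was at 1.25 and -0.56, a gap of 1.81, and its second probe set did not share the Colo205 direction. THBS1 was at 0.41 and -0.59, a gap of 0.998, with both Colo205 readings below the filter value.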

How the results depend on the processing

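Without the filter on low values, with a filter 1 log2 unit stricter, with each array centred on its median and with quantile normalisation, the same members passed 2-fold in each comparison, and limma called 0 members for resistance and 10 between the lines. With the median over a gene's probe sets, 21 members passed the filter, and TNC, ITGB8, THBS1 and MATN2 were among those lost, since their other probe sets read low. The counts were then 4 higher in HT29, 0 higher and 1 lower in Colo205, 5 higher in HT29 than in Colo205 and 1 lower, and the HT29 median was 0.0656. With probe sets ending _x_at or _s_at left out, 20 members were kept. The counts were 5 higher and 1 lower in HT29, 1 lower in Colo205, 5 higher in HT29 than in Colo205, and 6 called between the lines, and the mean of ITGB4 was -0.38. At 1.5-fold, Colo205 had 3 members higher and 5 lower. The shares of all genes at 1.5-fold and with other choices of probe set were not computed. These counts are therefore not to be set against the shares given above. Without the cell line as a replicate block, 0 members were called, as with it. Leaving out a line gives that of the other, and MATN2 ranged from -3.37 to 1.21. No test can be made with 1 array a group, so counts in limma were not run without a line. Readings near the filter value limit what can be said of FN1, LAMB2, FBLN1, ITGB3, COL6A1 and NID1, which the stricter filter dropped. Readings below it limit what can be said of COL4A1, COL12A1, SPARC and LOX.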
